A study of Mus musculus with 6 samples.

Results

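Macrophage markers were followed in cultures of mouse embryonic fibroblasts, the mixed mesenchymal cells that grow out of a dissociated embryo. The set was 10 genes chosen by symbol (Csf1r, Adgre1, Cd68, C1qa, C1qb, C1qc, Tyrobp, Fcer1g, Mrc1 and Ptprc), all of them present among the 49315 genes of the deposited table. The R206H group held 3 libraries of fibroblasts from Acvr1R206H/+ embryos, which carry 1 mutant and 1 normal copy of a type I receptor gene for bone morphogenetic proteins, the mutation of fibrodysplasia ossificans progressiva. The wild-type group held 3 libraries of Acvr1+/+ fibroblasts. Cells of both groups came from embryos at day 13.5, were grown with 10% fetal bovine serum, and were lysed at passage 0 after 2 days in six-well plates. No sorting step is recorded, and the number of embryos behind a culture is not given in the sources used here. The study asked which transcripts differ with the mutation. For these genes the further question was whether the macrophage content of a culture varied.

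Macrophages enter an embryo from the yolk sac and later from the fetal liver, settle in nearly every tissue and clear dying cells. Because they adhere to plastic, primary fibroblast cultures at an early passage can still contain them. They survive on signals through the receptor encoded by Csf1r, make the C1q chains of complement, and couple many of their surface receptors to kinases through the small adaptors encoded by Tyrobp and Fcer1g.

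Levels are TPM (transcripts per 1000000), the authors' values per gene length. All 10 markers were detected in all 6 libraries, at low levels. Together they took 0.00655%, 0.00552% and 0.00339% of TPM in R206H libraries 1, 2 and 3, against 0.00389%, 0.00424% and 0.00367% in wild-type libraries 1, 2 and 3. The R206H cultures thus held both the highest sums and the lowest. In a bulk library, fewer macrophages and less RNA per macrophage cannot be told apart.

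Estimated depth was 17500000 to 24600000 assigned reads or read pairs per library, and 318 to 676 of them fell on the 10 markers. Fibroblast markers summed to 11900 to 15000 TPM in R206H and 8110 to 9940 TPM in wild-type libraries, so the labelled cell type had its defining transcripts. Epithelial markers summed to 201 to 407 TPM in R206H and 558 to 652 TPM in wild-type libraries, and the part of this in the macrophage values was not tested. On a principal component analysis R206H library 3 lay farthest from the wild type on the first axis, and wild-type library 1 stood apart on the second, at 34.1 against -16.3 to 4.8 for the others.

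The promoters of these genes are shown because the markers are transcribed mainly in myeloid cells and several of them varied together between cultures. The stretches below come from RefSeq (GRCm38.p6), end at the RefSeq or the GENCODE start, whichever lies further upstream, and are printed in the direction of transcription. Capitals mark GAGGAA on either strand (TTCCTC on the printed strand), the core of the DNA site bound by PU.1, the ETS factor of myeloid cells.
C1qb (chr4:136886201-136886450, minus strand): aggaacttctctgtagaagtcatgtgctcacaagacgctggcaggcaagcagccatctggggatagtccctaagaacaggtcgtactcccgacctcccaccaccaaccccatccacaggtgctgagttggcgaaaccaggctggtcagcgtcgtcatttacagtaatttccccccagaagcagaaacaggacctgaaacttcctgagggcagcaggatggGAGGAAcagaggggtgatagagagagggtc
C1qc (chr4:136893066-136893164, minus strand): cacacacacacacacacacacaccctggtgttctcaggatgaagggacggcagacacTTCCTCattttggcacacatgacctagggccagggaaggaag
Mrc1 (chr2:14229164-14229391, plus strand): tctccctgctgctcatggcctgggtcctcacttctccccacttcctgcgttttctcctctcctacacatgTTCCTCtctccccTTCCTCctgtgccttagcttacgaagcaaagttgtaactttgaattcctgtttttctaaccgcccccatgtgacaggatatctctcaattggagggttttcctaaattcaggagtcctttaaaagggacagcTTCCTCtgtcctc
Cd68 (chr11:69666171-69666420, minus strand): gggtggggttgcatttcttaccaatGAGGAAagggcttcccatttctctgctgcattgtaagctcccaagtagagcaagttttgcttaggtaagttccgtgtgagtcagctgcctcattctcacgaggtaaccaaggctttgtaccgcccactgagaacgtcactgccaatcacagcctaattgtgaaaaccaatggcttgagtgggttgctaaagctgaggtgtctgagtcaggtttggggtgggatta
Fcer1g (chr1:171234366-171234599, minus strand): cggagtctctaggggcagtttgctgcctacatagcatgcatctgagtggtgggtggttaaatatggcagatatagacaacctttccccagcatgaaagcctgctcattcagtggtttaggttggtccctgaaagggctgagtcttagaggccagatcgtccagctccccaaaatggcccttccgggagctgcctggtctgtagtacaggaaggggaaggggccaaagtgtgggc

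RefSeq windows were matched for 6 of the 10 markers. GAGGAA occurred on either strand within 250 bases upstream of the start in 5 of these 6. It occurred in 18 of 38 other macrophage and myeloid genes and in 25.9% of 27025 genes. Mrc1 had 3 matches, ending 30, 162 and 175 bases before the RefSeq start, which lies downstream of the end of the printed stretch. The single C1qb match ended 25 bases before its RefSeq start. GGAAGT, which can overlap GAGGAA, occurred in 4 of the 6 (C1qb, C1qc, Mrc1 and Ptprc), in 15 of the 38 and in 22.2% of genes. TATAAA occurred in 1 of the 6, Ptprc, in 4 of the 38 and in 14.3% of genes. These are matches of letters, and Cd68, which varied least between cultures, held GAGGAA as well. The motifs were chosen after the sequences were seen, so these shares do not test whether the markers differ from other genes.

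**Figure D1:**
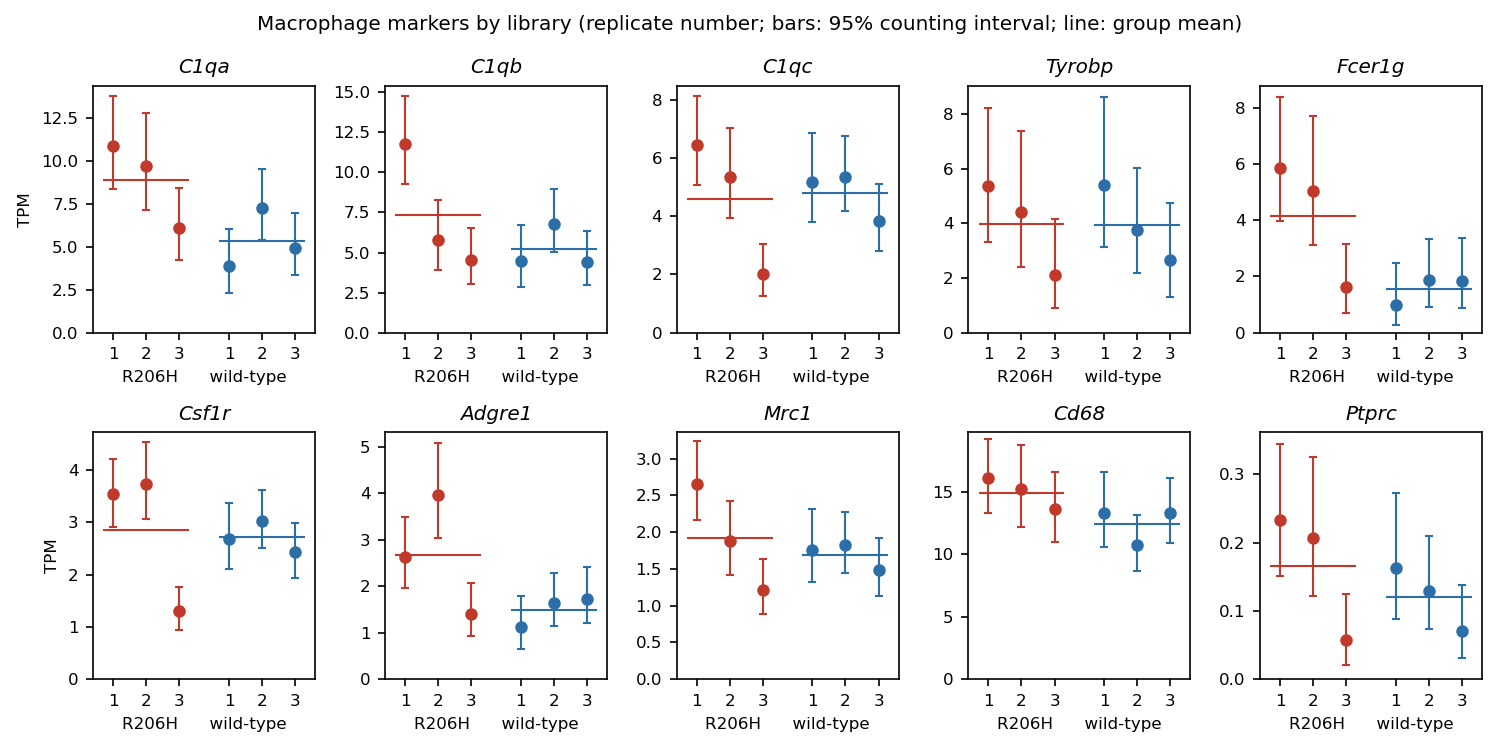
TPM (vertical axis) of each of the 10 macrophage markers in the 3 R206H and 3 wild-type libraries (horizontal axis, replicate numbers). Points are libraries, bars are 95% counting intervals from rebuilt reads, and lines are group means. R206H library 3 was the lowest of the 6 libraries for 5 genes, and the C1qc values there and in R206H library 1 were 2.0 and 6.46 TPM.

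The C1q genes encode the A, B and C chains of C1q, the recognition subunit of the classical complement pathway, and lie side by side on chromosome 4 (GRCm38) on the minus strand. C1qa (ENSMUSG00000036887, 136895917 to 136898803) had 10.9, 9.69 and 6.09 TPM in R206H libraries 1, 2 and 3, against 3.87, 7.25 and 4.94 TPM in wild-type libraries 1, 2 and 3. The groups overlapped in R206H library 3 and wild-type library 2. The mean was 8.87 ± 2.48 TPM in R206H and 5.36 ± 1.73 TPM in wild type (SD, n = 3 each). With limma on log2(TPM + 1) the difference, R206H minus wild type, was 0.64 (SE 0.257, adjusted p = 0.176), which did not pass 0.05.

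C1qb (ENSMUSG00000036905, 136880129 to 136886187) had 11.8, 5.79 and 4.53 TPM in the R206H libraries, against 4.48, 6.79 and 4.43 TPM in the wild-type libraries. R206H library 1 stood above the other 5 libraries. The log2 difference was 0.35 (SE 0.32, limma adjusted p = 0.534). C1qc (ENSMUSG00000036896, 136889804 to 136893065) had 6.46, 5.33 and 2.0 TPM in the R206H libraries, against 5.16, 5.36 and 3.83 TPM in the wild-type libraries. Here R206H library 3 stood below all other libraries, and the log2 difference was -0.14 (SE 0.338, limma adjusted p = 0.829). Without R206H library 3 it was 0.26, with the opposite sign.

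The chains of C1q assemble in equal numbers. The measured ratios of their transcripts differed between libraries, but nearly all counting intervals overlapped. The ratio of C1qa to C1qc was 1.68, 1.82 and 3.04 in the R206H libraries, against 0.751, 1.35 and 1.29 in the wild-type libraries, and the groups did not overlap. The counting intervals of R206H library 3 (1.74 to 5.42) and wild-type library 1 (0.416 to 1.3) were apart, while those of every other pair of libraries overlapped. The ratio of C1qb to C1qc was 1.82, 1.09 and 2.26 in the R206H libraries, against 0.869, 1.27 and 1.16 in the wild-type libraries, with overlapping groups. Its counting intervals overlapped for every pair of libraries. These ratios were chosen after their values were seen, and whether they were constant was not tested.

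**Figure D2:**
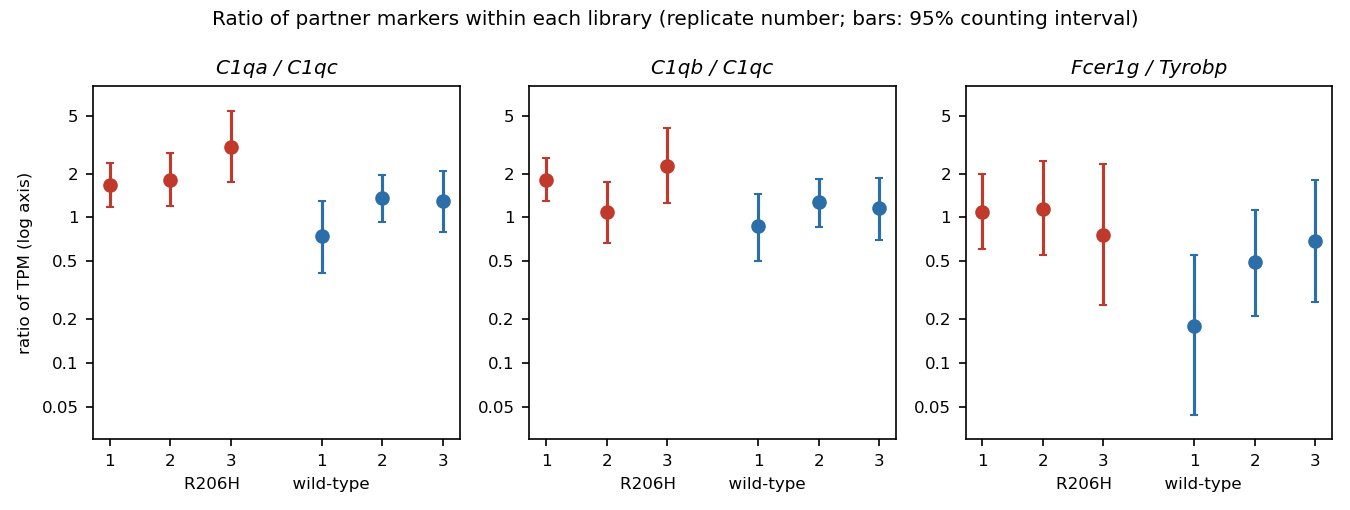
Ratio of TPM between partner markers within a library (vertical, log axis) for C1qa over C1qc, C1qb over C1qc and Fcer1g over Tyrobp, in R206H and wild-type libraries (horizontal axis, replicate numbers). Points are libraries and bars are exact binomial 95% counting intervals. C1qa over C1qc was 1.68 to 3.04 in R206H and 0.751 to 1.35 in wild-type libraries.

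Among the receptors and surface proteins, Csf1r encodes the receptor for the growth factors CSF1 and interleukin-34, on which most tissue macrophages depend. Csf1r (ENSMUSG00000024621, chromosome 18, 61100598 to 61132149, plus strand) had 3.54, 3.74 and 1.3 TPM in the R206H libraries, against 2.69, 3.03 and 2.43 TPM in the wild-type libraries. R206H libraries 1 and 2 were above, and R206H library 3 below, every wild-type library. Means were 2.86 ± 1.35 TPM in R206H and 2.72 ± 0.297 TPM in wild type (SD, n = 3 each), and the log2 difference was -0.02 (SE 0.295, limma adjusted p = 0.979). Without R206H library 3 it was 0.32. An opposite-strand gene, Hmgxb3, covers 873 bases, or 15.1%, of the Csf1r exons, at 35.2 to 39.4 TPM in R206H and 37.6 to 46.4 TPM in wild-type libraries. The strand setting of the counting is not given in the sources used here, so reads from that stretch cannot be told apart.

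Adgre1 encodes the surface receptor recognised by the F4/80 antibody, the classical marker of mouse macrophages. Adgre1 (ENSMUSG00000004730, chromosome 17, 57358691 to 57483527, plus strand) had 2.63, 3.95 and 1.41 TPM in the R206H libraries, against 1.11, 1.64 and 1.73 TPM in the wild-type libraries. R206H libraries 1 and 2 were above all wild-type libraries and R206H library 3 was within their range. The ratio of the means was 1.78 and the log2 difference 0.50 (SE 0.29, limma adjusted p = 0.319).

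Mrc1 encodes the mannose receptor, an endocytic lectin of resident macrophages that some endothelial cells also make. Mrc1 (ENSMUSG00000026712, chromosome 2, 14229392 to 14332057, plus strand) had 2.66, 1.88 and 1.21 TPM in the R206H libraries, against 1.76, 1.83 and 1.49 TPM in the wild-type libraries. The wild-type values lay between the R206H extremes, with a log2 difference of 0.09 (SE 0.231, limma adjusted p = 0.845).

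Ptprc encodes CD45, a tyrosine phosphatase on the surface of nucleated blood cells. It was the only marker below the filter of 1 TPM in at least 3 libraries and so was not tested in the main comparison. Ptprc (ENSMUSG00000026395, chromosome 1, 138062861 to 138175708, minus strand) had 0.233, 0.206 and 0.0576 TPM in the R206H libraries, against 0.162, 0.129 and 0.0702 TPM in the wild-type libraries. These values rest on 25, 18 and 6 rebuilt reads in the R206H and 14, 16 and 8 in the wild-type libraries. R206H library 3 was again the lowest. The exon-union length of Ptprc in GENCODE is 18313 bases, the longest of the 10, and a longer length gives a lower TPM for the same reads.

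Tyrobp and Fcer1g encode small adaptors that carry an immunoreceptor tyrosine-based activation motif (ITAM). The Tyrobp product, DAP12, serves receptors such as TREM2, and the Fcer1g product is the common gamma chain of Fc receptors. Fcer1g (ENSMUSG00000058715, chromosome 1, 171229572 to 171234365, minus strand) had 5.87, 5.04 and 1.61 TPM in the R206H libraries, against 0.97, 1.86 and 1.84 TPM in the wild-type libraries. R206H libraries 1 and 2 were well above the wild type and R206H library 3 was within its range. Means were 4.17 ± 2.26 TPM in R206H and 1.56 ± 0.508 TPM in wild type (SD, n = 3 each), a ratio of 2.68. The log2 difference of 0.92 (SE 0.384) was the largest of the 9 tested markers and did not pass (limma adjusted p = 0.187). The wild-type values rest on 4, 11 and 10 rebuilt reads.

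Tyrobp (ENSMUSG00000030579, chromosome 7, 30413760 to 30417585, plus strand) had 5.38, 4.41 and 2.11 TPM in the R206H libraries, against 5.4, 3.77 and 2.65 TPM in the wild-type libraries. Its groups covered nearly the same range, and the log2 difference was -0.02 (SE 0.319, limma adjusted p = 0.979). It was 0.29 without R206H library 3. The ratio of Fcer1g to Tyrobp was 1.09, 1.14 and 0.763 in the R206H libraries, against 0.18, 0.494 and 0.694 in the wild-type libraries. The counting interval of wild-type library 1 (0.044 to 0.551) overlapped neither that of R206H library 1 (0.604 to 2.0) nor that of R206H library 2 (0.555 to 2.43).

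Cd68 encodes a heavily glycosylated protein of late endosomes and lysosomes, abundant in macrophages and also found at low levels in other cells, fibroblasts among them. Cd68 (ENSMUSG00000018774, chromosome 11, 69664213 to 69666153, minus strand) had 16.1, 15.2 and 13.6 TPM in the R206H libraries, against 13.3, 10.7 and 13.3 TPM in the wild-type libraries. It was the most abundant marker in each of the 6 libraries and the only one whose groups did not overlap, although R206H library 3 and wild-type libraries 1 and 3 were close. Among the 14818 genes tested, 32.9% had such separated groups. Means were 14.9 ± 1.26 TPM in R206H and 12.4 ± 1.51 TPM in wild type (SD, n = 3 each), with a log2 difference of 0.25 (SE 0.116, limma adjusted p = 0.225). Cd68 made up 24.5%, 27.5% and 40.1% of the summed TPM of the markers in R206H libraries 1, 2 and 3, against 34.2%, 25.3% and 36.2% in the wild-type libraries.

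**Figure D3:**
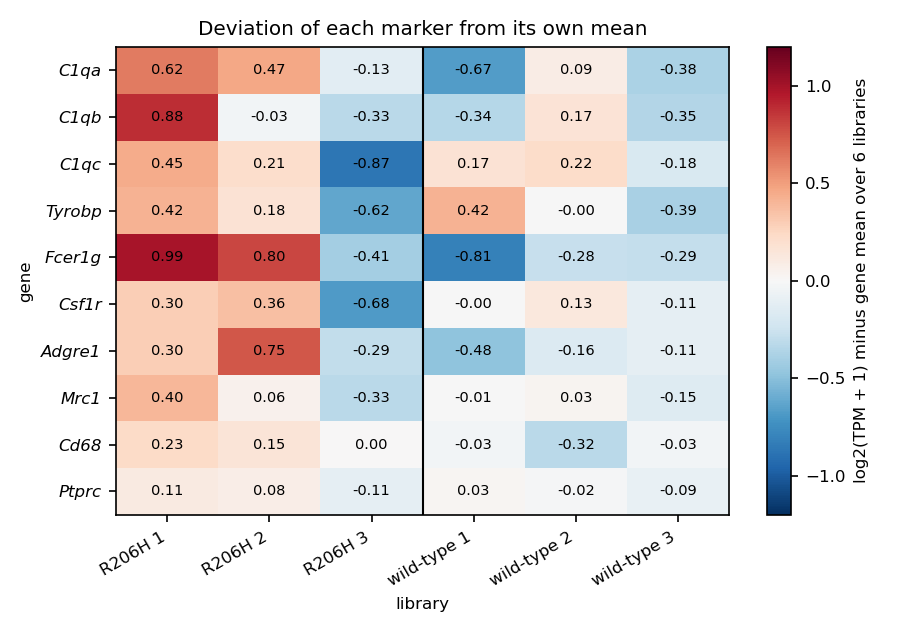
Deviation of log2(TPM + 1) from each gene's mean over the 6 libraries (colour and printed value) for the 10 markers (rows) in R206H and wild-type libraries (columns). In R206H library 1 all 10 markers are above their mean, and for 7 of them it is the highest library.

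By mean level over the 6 libraries the order was Cd68 (13.7 TPM), C1qa (7.12 TPM), C1qb (6.3 TPM), C1qc (4.69 TPM), Tyrobp (3.95 TPM), Fcer1g (2.87 TPM), Csf1r (2.79 TPM), Adgre1 (2.08 TPM), Mrc1 (1.81 TPM) and Ptprc (0.143 TPM). Neighbours in this order had overlapping ranges over the libraries except Mrc1 and Ptprc. TPM is per gene length, so these levels can be compared between genes as far as the authors' lengths hold.

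The spread among R206H cultures was wider than among wild-type cultures for most markers. In R206H the highest library was 1.18 times the lowest for Cd68 and 4.05 times for Ptprc, the extremes of the 10, and in wild type it was 1.23 times for Mrc1 and 2.31 times for Ptprc. For 7 of the 10 (Csf1r, Adgre1, C1qb, C1qc, Fcer1g, Mrc1 and Ptprc) the 95% counting intervals of the highest and lowest R206H libraries did not overlap. In wild type this held for none of the 10. Over all genes with rebuilt reads the share was 44.3% in R206H and 40.9% in wild type, but genes with more reads than these markers separate more easily. Per 1000000 assigned reads, the 10 markers had 31.2, 27.6 and 15 reads in R206H libraries 1, 2 and 3, against 19.8, 21.9 and 18.7 in the wild-type libraries. The interval of R206H library 3 (13.4 to 16.7) lay below, and those of R206H libraries 1 (28.9 to 33.6) and 2 (25.3 to 30.2) above, all wild-type intervals, which ran from 17.0 to 23.9. These intervals cover counting error only.

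Each tested marker was set against the mean of the other 8 over the 6 libraries. Pearson's r was 0.90 for Mrc1, 0.86 for Fcer1g, 0.82 for Csf1r, 0.79 for C1qa and C1qb, 0.75 for Adgre1, 0.72 for C1qc, 0.62 for Tyrobp and 0.50 for Cd68. These values describe 6 libraries that share a total, and mainly show R206H libraries 1 and 2 set against R206H library 3.

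Summed over the 10 markers, the level was 51.5 ± 16.1 TPM in R206H and 39.3 ± 2.84 TPM in wild type (SD, n = 3 each), a ratio of 1.31. Without R206H library 3 the ratio was 1.53, and without R206H library 1 it was 1.13. Without Cd68 the sums were 49.4, 40 and 20.3 TPM in the R206H libraries, against 25.6, 31.7 and 23.4 TPM in the wild-type libraries.

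None of the 9 tested markers passed with limma, against 2.04% of the 14818 genes tested. At an unadjusted p under 0.05 there were 2, C1qa and Fcer1g, where 26.1% of all genes reached that level. Limma voom on rebuilt reads called 0 of the 9, against 8.82% of its genes. The median log2 difference of the 9 was 0.25, beside 0.02 over all genes tested. Without R206H library 3 all 9 differences were positive, from 0.26 for C1qc to 1.35 for Fcer1g. R206H library 3 was the lowest R206H library for each of the 9, so leaving it out had to raise every difference. In that fit 4 had an unadjusted p under 0.05 (Fcer1g, C1qa, Adgre1 and Cd68), against 19.1% of genes, and no marker and no other gene passed after adjustment. The limma adjusted p of Fcer1g was then 0.0912, in a range of 0.0912 to 0.378 over its alternatives. Leaving out R206H library 1 instead gave differences from -0.4 for C1qc to 0.66 for Fcer1g. Those of Csf1r, C1qb, C1qc, Tyrobp and Mrc1 were then negative. Intervals of the main fit were wide. The 95% interval of the log2 difference ran from -0.71 to 0.68 for Csf1r and from -0.77 to 0.73 for Tyrobp. Changes of that size were thus not detectable here.

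**Figure D4:**
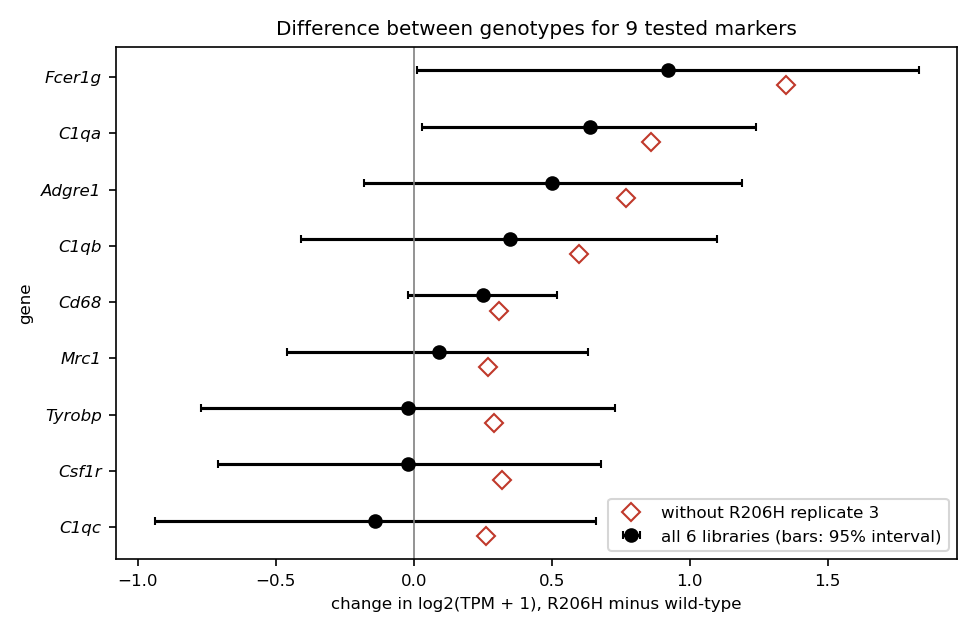
Difference in log2(TPM + 1), R206H minus wild type (horizontal axis), for the 9 tested markers (rows). Filled points are the limma fit of all 6 libraries with 95% intervals and open diamonds the fit without R206H replicate 3. The diamonds lie between 0.26 and 1.35, to the right of the filled points. This had to follow, because R206H replicate 3 was the lowest R206H library for every marker shown.

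Of 50 other macrophage and myeloid genes, 20 passed the filter. Limma called none of the 20. There were 3 with unadjusted p below 0.05, and voom called Mertk alone, as lower, beside 26.1% and 8.82% of all genes. Their median log2 difference was 0.09. R206H library 3 was the lowest library for 11 of the 20 and R206H library 1 the highest for 8, against 22.7% and 8.85% of all genes tested. A low in R206H library 3 was also seen in 5 of 8 endothelial, 5 of 11 epithelial and 3 of 6 osteoclast markers tested, and the epithelial sums were 407, 294 and 201 TPM in R206H libraries 1, 2 and 3, against 648, 558 and 652 TPM in the wild-type libraries. The median r with the profile of the 9 markers was 0.64, beside -0.03 over all genes. Lyz2, which encodes lysozyme, had 74.5, 51.6 and 23.8 TPM in the R206H libraries, against 66.5, 43.9 and 32.5 TPM in the wild-type libraries. Pf4, a chemokine gene of platelets and some macrophages, had 8.06, 5.82 and 2.2 TPM in the R206H libraries, against 8.82, 4.92 and 3.57 TPM in the wild-type libraries. Both were lowest in R206H library 3, as 5 of the 10 markers were, but unlike Fcer1g they were about as high in wild-type library 1 as in R206H library 1.

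Cd14 and Mertk were also among the abundant genes of that list, with an r of 0.75 and -0.46 with the marker profile. Cd14, the lipopolysaccharide co-receptor, had 9.24, 8.68 and 7.16 TPM in the R206H libraries, against 8.23, 6.86 and 7.77 TPM in the wild-type libraries. Mertk, a receptor for dying cells, had 11.4, 11.0 and 11.8 TPM in the R206H libraries, against 13.9, 16.8 and 17.9 TPM in the wild-type libraries (log2 difference -0.46, SE 0.11, limma adjusted p = 0.0689). Its groups did not overlap, which held for 4 of the 20 tested genes of that list and for 32.9% of all genes tested.

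**Figure D5:**
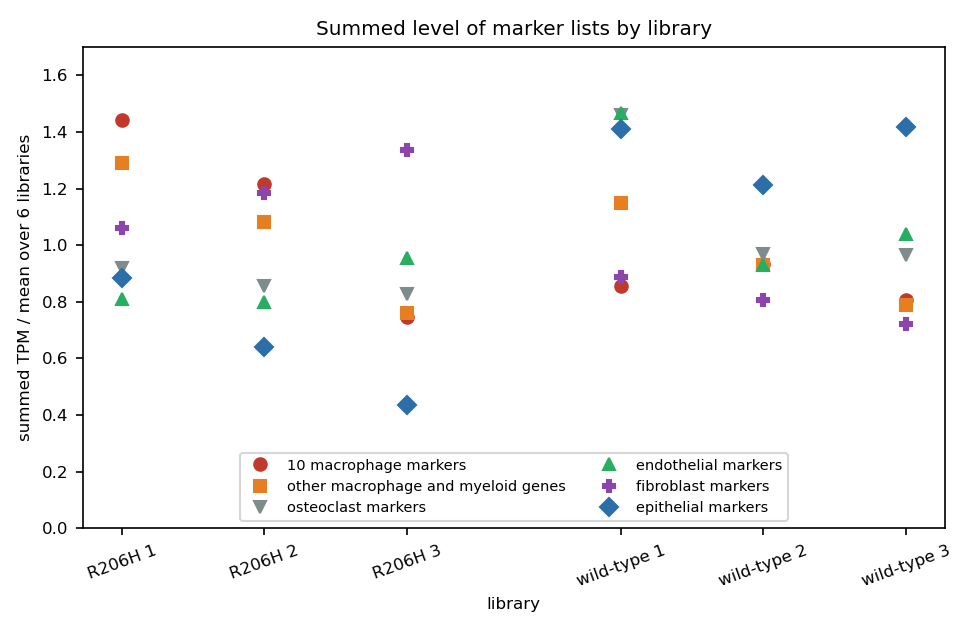
Summed TPM of 6 marker lists, each divided by its mean over the 6 libraries (vertical axis), by library (horizontal axis). Points are libraries. The macrophage markers and the other macrophage and myeloid genes are lowest in R206H library 3, at 33.9 and 103 TPM. The latter are at 107 TPM in wild-type library 3. The epithelial and osteoclast markers are also lowest in R206H library 3, at 201 and 42.1 TPM, and the fibroblast markers are highest there, at 15000 TPM.

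The CSF1 receptor's ligand and signalling list had 18 of 19 genes tested, with 1 higher in R206H and none lower, where 1.26% and 0.79% of all genes were called. Csf1, the ligand gene, had 308, 253 and 199 TPM in the R206H libraries, against 310, 316 and 358 TPM in the wild-type libraries. All R206H values were below all wild-type values, and 32.9% of all genes tested had groups that did not overlap. The log2 difference of -0.39 (SE 0.151) did not pass (limma adjusted p = 0.16). R206H library 3 was the lowest for both Csf1r and Csf1. Wild-type library 3, the highest for Csf1 at 358 TPM, had the lowest wild-type Csf1r value, 2.43 TPM. The counting intervals of Csf1r in the wild-type libraries overlapped. The r of Csf1 with the marker profile was 0.21, and whether the ligand level bears on the markers was not tested. The called gene was Stat3, a transcription factor active in many cell types, which rose to 76.8, 85.7 and 97.6 TPM in the R206H libraries, against 59.3, 53.9 and 44.9 TPM in the wild-type libraries (log2 difference 0.71, SE 0.124, limma adjusted p = 0.0476). This call was lost without R206H library 2 or 3 or wild-type library 2 or 3, where limma gave an adjusted p of 0.152, 0.101, 0.14 and 0.162. It was also lost with a pseudocount of 0.1, no filter, no trend and the replicate block (limma adjusted p = 0.0504, 0.11, 0.0932 and 0.127). Voom called 3 genes of the list higher, Stat3, Stat5a and Pik3cd, where it called 8.82% of all its genes in either direction. Cebpb, Grb2 and Ets2, regulators shared by many cells, had log2 differences of 0.25, 0.03 and 0.27 that did not pass.

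Of 24 listed receptors and kinases that work with the ITAM adaptors, 6 passed the filter. Limma called none of these, and 1 had an unadjusted p below 0.05, where 26.1% of all genes tested did. Voom called 1 of them lower, Blnk, an adaptor downstream of the kinase SYK, where it called 8.82% of all its genes in either direction. Blnk had 1.23, 0.49 and 0.675 TPM in the R206H libraries, against 2.72, 2.89 and 1.93 TPM in the wild-type libraries. It was under 1 TPM in R206H libraries 2 and 3 and met the filter only with the wild-type libraries, where it was higher. Its entry among the tested genes therefore favoured a lower result in R206H. The kinase genes Lyn and Syk had log2 differences of -0.13 and -0.22. Fcgr3, an activating Fc receptor that uses the Fcer1g product, had 2.17, 2.3 and 0.912 TPM in the R206H libraries, against 1.59, 1.02 and 2.13 TPM in the wild-type libraries. Ms4a2, the beta chain of the high-affinity IgE receptor, had 3.22, 3.28 and 1.06 TPM in the R206H libraries, against 4.9, 3.84 and 0.686 TPM in the wild-type libraries. In Fcgr3, R206H libraries 1 and 2 were above every wild-type library, though wild-type library 3 was close, and R206H library 3 was lowest. The Fcer1g pattern of 2 high R206H libraries was not seen in Ms4a2.

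Of 23 other complement genes, 17 were tested, 1 was higher and none lower with limma, where 1.26% and 0.79% of all genes were called. The higher one was Masp1, which encodes a protease of the lectin pathway, at 99.5, 119 and 125 TPM in the R206H libraries, against 62.5, 72.4 and 71.8 TPM in the wild-type libraries (log2 difference 0.72, SE 0.101, limma adjusted p = 0.0419). This call too was lost without R206H library 2 or 3 or wild-type library 2 or 3, where limma gave an adjusted p of 0.152, 0.0868, 0.121 and 0.149. The same held with no filter, no trend and the replicate block (limma adjusted p = 0.102, 0.0801 and 0.0989). Voom called Masp1 and Colec12 higher, where it called 8.82% of all its genes in either direction. The collectin gene Colec12 and the C1q-binding chaperone gene Calr had log2 differences of 0.60 and 0.19 that did not pass (limma adjusted p = 0.0618 and 0.177). C1ra and C1s1, picked after their values were seen, encode the proteases that bind C1q. C1ra had 3.96, 3.38 and 7.32 TPM in the R206H libraries, against 4.27, 1.34 and 1.35 TPM in the wild-type libraries. C1s1 had 5.85, 5.7 and 7.92 TPM in the R206H libraries, against 7.11, 2.13 and 2.31 TPM in the wild-type libraries. Both were highest in R206H library 3, where C1qc was lowest but C1qa and C1qb were not. Both were also higher in wild-type library 1 than in the other wild-type libraries.

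The genes most like the markers were found by Pearson's r, over the 6 libraries, with the mean of the 9 tested markers. Of 14809 other genes, 0.317% had an r above 0.9, among them 1 of the 20 other macrophage and myeloid genes, Lcp1, an actin-bundling protein of white blood cells. The 10 highest with a named gene were Dnajb4 (0.981), Has2 (0.98), Gucy1b1 (0.975), C5ar1 (0.973), Sh3gl3 (0.966), Eef1akmt2 (0.955), Ret (0.954), Gadd45g (0.95), Sdk2 (0.949) and Tpm4 (0.948). C5ar1, the receptor for the complement fragment C5a on myeloid cells, had 3.93, 3.51 and 1.16 TPM in the R206H libraries, against 2.06, 2.19 and 2.0 TPM in the wild-type libraries. Has2, a hyaluronan synthase of fibroblasts, had 76.8, 73.2 and 49.4 TPM in the R206H libraries, against 59.2, 58.9 and 55.0 TPM in the wild-type libraries. With 6 libraries and so many genes, an r of this size does not set macrophage genes apart from genes of other cells.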

How the data were processed

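Total RNA depleted of ribosomal RNA was read from both ends at 150 bp, per the labels' protocols. The authors deposited TPM per Ensembl gene, 1 column for each of 6 libraries. The submitters' processing notes name DESeq2, featureCounts, Subread, STAR and Trimmomatic, and GRCm38 and mm10 as builds. The sources used here give no gene lengths, annotation release or strand setting. Nothing in the labels says whether replicates came from separate embryos, although the design text calls them biological. No pair of libraries was identical.

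A gene needed a TPM of 1 in 3 or more libraries, which 14818 met. Differences in log2(TPM + 1) were fitted by limma 3.58.1, run under R 4.3.3 (mean-variance trend, two-sided, Benjamini-Hochberg, threshold 0.05). A fold on this scale understates changes of low genes. The test was checked on simulated data. Reads were rebuilt from TPM and exon-union lengths of GENCODE M21. They were whole within 0.05 for 91.1% to 91.5% of values under 100 reads, but not for Csf1r in any library or Adgre1 in 5 of 6, whose reads were rounded. Counting intervals are exact Poisson, or exact binomial for ratios, at 95%, for single libraries. Of 2 rows named Itgam, the one with the higher mean was kept. Python 3.11.15, pandas 2.3.3 and matplotlib 3.10.9 were used.

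The markers and lists were chosen with earlier results of these data known, and motifs after sequences were seen. Besides the 10 markers, the text names the 5 most abundant genes of a list (1 of them is not reported here), genes that passed, and the 10 most alike without gene models and pseudogenes. C1ra, C1s1, Lcp1, Pik3cd, Stat5a and Dcstamp were named after their values were seen.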

Additional observations from a re-analysis of the deposited data

How the results depend on the processing

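No marker passed under any of the alternatives run with limma or voom. The number of all genes called, 303 in the main comparison, was 129 with a pseudocount of 0.1, 2 with no filter, 587 with a filter at TPM 5, 200 with quantile normalization, 27 without the trend and 1304 with voom on rebuilt reads. With single libraries left out it ran from 0 to 729. With the replicate number as a block it was 0, with 3301 genes at an unadjusted p under 0.05 and no marker called. Same-numbered libraries correlated at 0.018, 0.06 and -0.028, and not every library correlated best with its own number, so the numbers were not taken as pairs.

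The log2 difference changed sign for Csf1r (0.01 with a pseudocount of 5, 0.04 without wild-type replicate 2 and 0.32 without R206H replicate 3), C1qc (0.26) and Tyrobp (0.29) without R206H replicate 3, Tyrobp without wild-type replicate 1 (0.19), Mrc1 without R206H replicate 1 (-0.09) and C1qb without R206H replicate 1 (-0.0048). The cause was not tested. Over these settings the lowest and highest values were -0.2 and 0.32 for Csf1r, -0.0048 and 0.6 for C1qb, -0.4 and 0.26 for C1qc, -0.23 and 0.29 for Tyrobp and -0.09 and 0.27 for Mrc1. Adgre1, C1qa, Cd68 and Fcer1g kept their sign. Of 56 abundant or called genes of the other lists, 10 changed sign in at least 1 setting. The difference in summed TPM of the markers, 12.2 in the main comparison, ran from 5.21 without R206H replicate 1 to 21 without R206H replicate 3. Counts of 4 to 119 reads per marker and library limit what could be detected.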

Other observations

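Genes of relatives and neighbours of the macrophage were set beside the markers. Of 16 lysosomal genes, which include the relatives of Cd68, 15 were tested and limma called none. Unadjusted, 4 had p below 0.05, and voom called the protease gene Ctsl lower, beside 26.1% and 8.82% of all genes. Cd63 was at 3050, 3180 and 3360 TPM in the R206H libraries, against 2980, 3140 and 3040 TPM in the wild-type libraries, and the list's lowest library was R206H 3 for 1 gene only. Psap, Lamp1 and Ctsd had log2 differences of 0.15, -0.13 and 0.07. In the mannose receptor family 3 of 7 genes were tested and limma and voom called none, while 1 had an unadjusted p below 0.05. Mrc2, the relative of Mrc1 made by fibroblasts, had 109, 112 and 138 TPM in the R206H libraries, against 106, 86.8 and 81.8 TPM in the wild-type libraries. It was highest in the library where Mrc1 was lowest.

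Osteoclasts descend from the same lineage as macrophages. Of 11 osteoclast markers 6 were tested and limma called none. Unadjusted, 2 had p below 0.05, and voom called Car2 lower. The shares over all genes, 26.1% unadjusted and 8.82% with voom, stand beside these counts and those of the lists that follow. Dcstamp, needed for osteoclast fusion, was listed at 0 in every library, and Mmp9 reached 21.6 TPM in wild-type library 1 against 2.44 to 3.93 TPM in the other 5. Of 25 markers of lymphocytes, granulocytes, mast cells and dendritic cells only 3 passed the filter and 6 were listed at 0 in every library. Their sum was 6.66 to 9.01 TPM in R206H and 6.8 to 12.6 TPM in wild-type libraries. Limma and voom called none of those 3, and 1 had an unadjusted p below 0.05. Of 15 erythroid and megakaryocyte markers 3 passed the filter, with the same counts, and 7 were listed at 0 in every library. Of 13 endothelial markers 8 were tested and limma called none. Unadjusted, 3 had p below 0.05, and voom called Flt4 lower. They summed to 34.4 to 41.0 TPM in R206H and 39.9 to 63.1 TPM in wild-type libraries. Of 13 fibroblast markers limma called none, 9 had an unadjusted p below 0.05 and voom called 7 higher, where 26.1% of all genes had such a p and voom called 8.82% in either direction. Of 11 epithelial markers tested, all 11 had an unadjusted p below 0.05, 2 were lower with limma, against 0.79% of all genes, and 7 were lower with voom. These 2 were Cldn3 and Epcam, tight-junction and adhesion proteins, and neither was called without R206H library 2 or 3 (limma adjusted p = 0.152 and 0.0613 for Cldn3, 0.152 and 0.1 for Epcam). Cldn3 was also not called without wild-type library 3 (limma adjusted p = 0.121). The same held for Cldn3 with no filter and the replicate block (limma adjusted p = 0.0794 and 0.0989). For Epcam it held with a pseudocount of 5, no filter, no trend and the replicate block (limma adjusted p = 0.0565, 0.11, 0.0775 and 0.119). Epcam and Cldn7 were under 1 TPM in every R206H library and met the filter only through the wild-type libraries, where they were higher. Their entry among the 11 therefore favoured a lower result in R206H. Epcam fell below the filter with any wild-type library left out.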
